A study of Mus musculus with 12 samples.

Results

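Transcripts of 7 genes of the RAS and RAF families were followed across mouse embryonic fibroblasts (MEFs) that carry different amino acids at codon 61 of Nras. The genes were taken by symbol from the deposited count table, 7 of its 24419 genes, and comprised 5 RAS family GTPases (Nras, Hras, Rras, Rras2 and Mras) and 2 RAF kinases (Araf and Braf). The rule takes symbols and no measured value, although earlier results of these data were known when the genes were chosen. All 7 passed the filter on low counts, which 15759 genes passed, with 1877 to 11182 reads in every library.

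The 12 libraries came from TN mouse strains on a C57BL/6 background, with 3 cultures of each genotype. The letter in each name gives the residue at codon 61 of both Nras alleles, so 61Q/Q has the normal glutamine, 61P/P has proline, 61H/H has histidine and 61R/R has arginine. In every genotype, 61Q/Q included, Nras was expressed from its own locus after adenoviral Cre had removed a stop cassette, so no group had an untouched Nras locus. The 61H/H, 61P/P and 61Q/Q alleles had been made by CRISPR editing of 61R/R zygotes. The Tyr::CreERT2 transgene of the TN strains is driven by a melanocyte promoter, and the adenovirus supplied Cre to the fibroblasts. Cells were cultured for 6 days in medium with 10% serum. The names melanomagenic, for 61H/H with 61R/R, and non-melanomagenic, for 61P/P with 61Q/Q, follow the tumor behaviour of the alleles in mice and were not tested here.

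RAS proteins are membrane-bound switches that are active with GTP and inactive with GDP. Active RAS recruits RAF kinases, which phosphorylate MEK, and MEK phosphorylates ERK. Glutamine 61 takes part in the hydrolysis of GTP, and its substitution holds RAS in the active state to a degree that depends on the new residue. Activation of this kind acts on the protein, and RNA sequencing measures the transcripts of these genes, not their nucleotide state or kinase activity.

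The codon that was changed in Nras has a counterpart in each of the other RAS genes measured. The stretches below are the mouse reference coding sequence from GENCODE M21 (GRCm38), 30 bases each and 5′ to 3′ on the coding strand, with the glutamine codon in capitals. They are shown because the codon differs between the 4 genotypes in the first gene only.
Nras: ctggacacagctggaCAAgaggagtacagt
Hras: ttagacacagcaggtCAAgaagagtatagt
Rras: ctggacactgcggggCAAgaggaatttggt
Rras2: ttggatacagccggaCAAgaggagtttgga
Mras: ctggacacagccgggCAGgaggagttcagt
In Nras the stretch lies in exon 3 at chr3:103060255-103060284 on the plus strand, and the glutamine is residue 61. The Hras stretch, on the minus strand at chr7:141192537-141192566, also has it at residue 61. The corresponding glutamine is residue 87 in Rras (chr7:45020305-45020334, plus strand), 72 in Rras2 (chr7:114058998-114059027, minus strand) and 71 in Mras (chr9:99394591-99394620, minus strand). Of the 30 bases, 24 in Hras, 23 in Rras, 23 in Rras2 and 26 in Mras were identical to Nras. The reads were not examined, so the allele at codon 61 was not read in any library.

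Libraries held between 73222911 and 92179519 counts, and Rn45s, the ribosomal RNA precursor, took 8.89% to 13.9% of them. Levels are given as CPM, read counts divided by a TMM-scaled library size, with the mean ± SD over 3 cultures. Every genotype had 1 female and 2 male embryos by their sex-linked transcripts. The melanocyte genes Tyr, Dct and Mlana reached at most 0.022, 0.025 and 0.14 CPM in any library. The other genes of that list were higher, Pmel at 0.26 to 0.91 CPM and Mitf at 7.63 to 12.9 CPM. The 12 fibroblast markers summed to 45030 to 62664 CPM for 61Q/Q, 33599 to 37936 for 61P/P, 21808 to 24524 for 61H/H and 21471 to 38012 for 61R/R, and 10 macrophage markers to 224.2 to 336.6, 120.5 to 297.2, 117.2 to 185.6 and 134.4 to 249.5 CPM in the same order. The fibroblast sum thus moved with the genotype, and its part in the results below was not tested. Within that list Col1a1 (log2 fold change −1.28), Col3a1 (−1.11), Col1a2 (−0.76), Fn1 (−0.85) and Pdgfrb (−0.98) were called lower in the melanomagenic class, Pdgfra (0.98) and Vim (0.20) were called higher, and Thy1, Dcn, Lum, Twist1 and Prrx1 were not called. In bulk RNA, fewer cells of a type and less RNA per cell cannot be told apart.

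Per kilobase of transcript, Rras2 was the most abundant of the 7 genes and Braf the least. The mean over the 12 libraries was 40.8 CPM per kilobase for Rras2, 30.6 for Rras, 24.3 for Nras and 24.2 for Hras. It was 12.9 CPM per kilobase for Araf, 9.34 for Mras and 6.74 for Braf. Nras and Hras were not separated by their spread over libraries, since Nras ranged from 19.7 to 28.1 and Hras from 21.8 to 25.9 CPM per kilobase. Rras2 and Rras were close in both non-melanomagenic genotypes, with means of 38.5 ± 3.12 and 35.4 ± 1.92 CPM per kilobase in 61Q/Q and of 32.3 ± 2.95 and 29.7 ± 4.72 in 61P/P (SD, n = 3). The length is that listed for each gene in the count table, from 946 bases for Rras to 9728 for Braf.

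**Figure D1:**
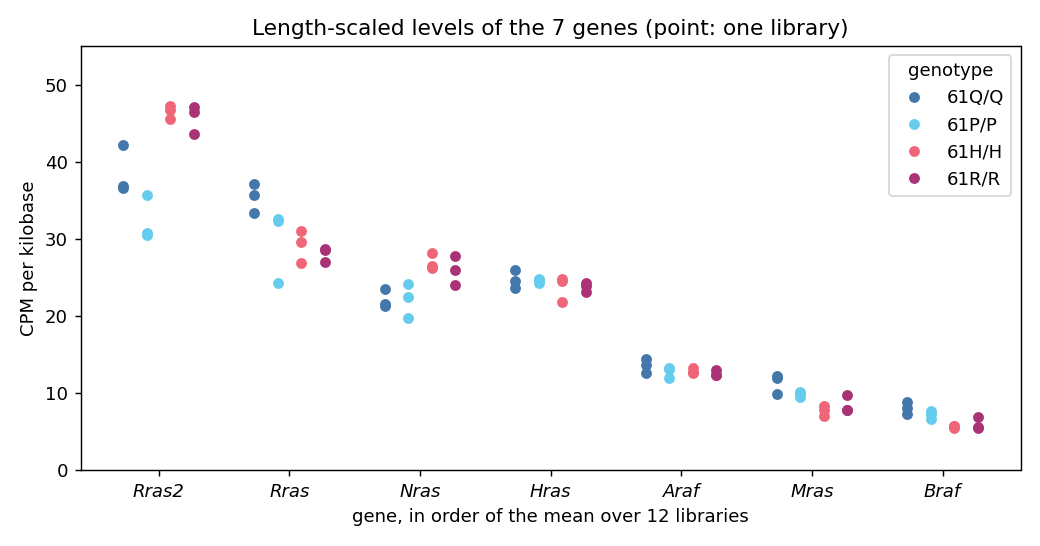
Level of each gene in CPM per kilobase (y axis), with genes on the x axis in order of their mean; each point is a library and each color a genotype. Rras2 is the highest gene in the melanomagenic libraries, and Nras and Hras overlap.

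Nras transcripts were higher in the melanomagenic genotypes. Its level was 96.6, 104.7 and 94.997 CPM for 61Q/Q, 88.1, 100.4 and 108.1 for 61P/P, 125.8, 118.3 and 117.3 for 61H/H and 107.1, 123.9 and 115.9 for 61R/R. All 61H/H libraries lay above every 61P/P and 61Q/Q library, and 61R/R overlapped 61P/P through 61R/R replicate 1. The mean of the melanomagenic genotypes exceeded that of the non-melanomagenic ones by a log2 fold change of 0.26 (SE 0.057, adjusted p = 0.00943, edgeR quasi-likelihood test). In 61H/H Nras was higher than in 61Q/Q by 0.29 (adjusted p = 0.0235), a call lost when 61Q/Q library 1 or 3, or 61H/H library 1 or 2, was left out. The corresponding value in 61R/R was 0.23 (adjusted p = 0.0673). Between 61P/P and 61Q/Q the difference was 0.00095, with a 95% interval of −0.18 to 0.18.

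Hras, the close relative of Nras whose own codon was not changed in any group, gave no call. It had 58.9, 53.7 and 55.8 CPM for 61Q/Q, 56.2, 56.0 and 55.2 for 61P/P, 49.6, 56.4 and 55.7 for 61H/H and 54.2, 52.4 and 55.3 for 61R/R. The 4 groups overlapped. Between the classes the log2 fold change was −0.054 with a 95% interval of −0.14 to 0.036 (adjusted p = 0.339).

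Rras2, also called TC21, is an R-Ras subfamily GTPase that can activate PI3K, and it separated the classes without overlap. Its level was 83.9, 95.9 and 83.3 CPM for 61Q/Q, 70.0, 69.4 and 81.3 for 61P/P, 106.3, 103.7 and 107.6 for 61H/H and 99.2, 107.1 and 105.7 for 61R/R. The highest non-melanomagenic library, 61Q/Q replicate 2 with 95.9 CPM, lay below the lowest melanomagenic one, 61R/R replicate 1 with 99.2 CPM, and 61P/P lay below 61Q/Q. Rras2 was higher in the melanomagenic class by a log2 fold change of 0.39 (SE 0.053, adjusted p = 0.00326), in 61R/R than in 61P/P by 0.50 (adjusted p = 0.0192) and in 61H/H than in 61P/P by 0.52 (adjusted p = 0.0196). It was the one member called in both of these comparisons with 61P/P. The call against 61P/P was lost in 61R/R without 61P/P replicate 2 or 61R/R replicate 2 or 3, and in 61H/H without 61P/P replicate 1 or 2 or 61H/H replicate 2 or 3. Relative to 61Q/Q it was higher by 0.25 in 61R/R (adjusted p = 0.0428), a call lost without any 1 of 8 libraries (61Q/Q 1 or 3, 61P/P 2, any 61H/H, 61R/R 2 or 3), and by 0.27 in 61H/H (adjusted p = 0.0218), lost without 61Q/Q 1 or 3 or any 61H/H library. The value for 61P/P relative to 61Q/Q, −0.25, missed the threshold (adjusted p = 0.0627).

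Rras, which acts in integrin-mediated adhesion, was highest in 61Q/Q. It had 35.1, 31.5 and 33.8 CPM for 61Q/Q, 23.0, 30.8 and 30.6 for 61P/P, 27.9, 25.4 and 29.3 for 61H/H and 27.2, 27.1 and 25.5 for 61R/R. All libraries of the other genotypes lay below the lowest 61Q/Q library. The fall in 61R/R relative to 61Q/Q was called at −0.33 (adjusted p = 0.0469), and that call held in 9 of 21 alternatives, being lost without any 1 of 9 libraries (61Q/Q 1 or 3, 61P/P 2, any 61H/H or any 61R/R). In 61H/H (−0.28, adjusted p = 0.0634), in 61P/P (−0.25, adjusted p = 0.148) and between the classes (−0.18, adjusted p = 0.0845) it was not called.

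Mras transcripts, from a GTPase that binds SHOC2 and the PP1 phosphatase in a complex that removes an inhibitory phosphate from RAF, were lower in the melanomagenic class. The level was 48.0, 39.6 and 49.0 CPM for 61Q/Q, 40.9, 40.5 and 38.2 for 61P/P, 28.3, 31.7 and 33.4 for 61H/H and 39.2, 31.5 and 31.3 for 61R/R. The 61R/R replicate 1 library stood within the range of 61P/P, while the other 5 melanomagenic libraries lay below it. Mras fell by 0.39 on the log2 scale between the classes (SE 0.074, adjusted p = 0.00539), by 0.55 in 61H/H relative to 61Q/Q (adjusted p = 0.00563) and by 0.42 in 61R/R relative to 61Q/Q (adjusted p = 0.0250).

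Of the RAF kinases, Braf was lower in the melanomagenic class and Araf was not called. Braf, which is often mutated in human melanoma, had 85.7, 71.2 and 78.1 CPM for 61Q/Q, 74.7, 71.3 and 65.0 for 61P/P, 55.2, 53.3 and 56.0 for 61H/H and 67.7, 53.9 and 54.8 for 61R/R. Again 61R/R replicate 1 lay within the 61P/P range and the other melanomagenic libraries below it. Braf fell by 0.39 on the log2 scale between the classes (SE 0.067, adjusted p = 0.00445), by 0.52 in 61H/H relative to 61Q/Q (adjusted p = 0.00509) and by 0.41 in 61R/R relative to 61Q/Q (adjusted p = 0.0210). Relative to 61P/P it was lower in 61H/H by 0.36 without passing the threshold (adjusted p = 0.0630). Araf, a RAF kinase with weaker catalytic activity, had 44.2, 40.9 and 46.7 CPM for 61Q/Q, 38.9, 42.3 and 42.7 for 61P/P, 42.7, 41.3 and 40.7 for 61H/H and 42.2, 39.9 and 40.2 for 61R/R. The groups overlapped, and the class difference was −0.049 with a 95% interval of −0.14 to 0.044 (adjusted p = 0.403). Araf shares 11 exon bases with Syn1 on the opposite strand, and the strand setting of the counting is not given in the sources used here.

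**Figure D2:**
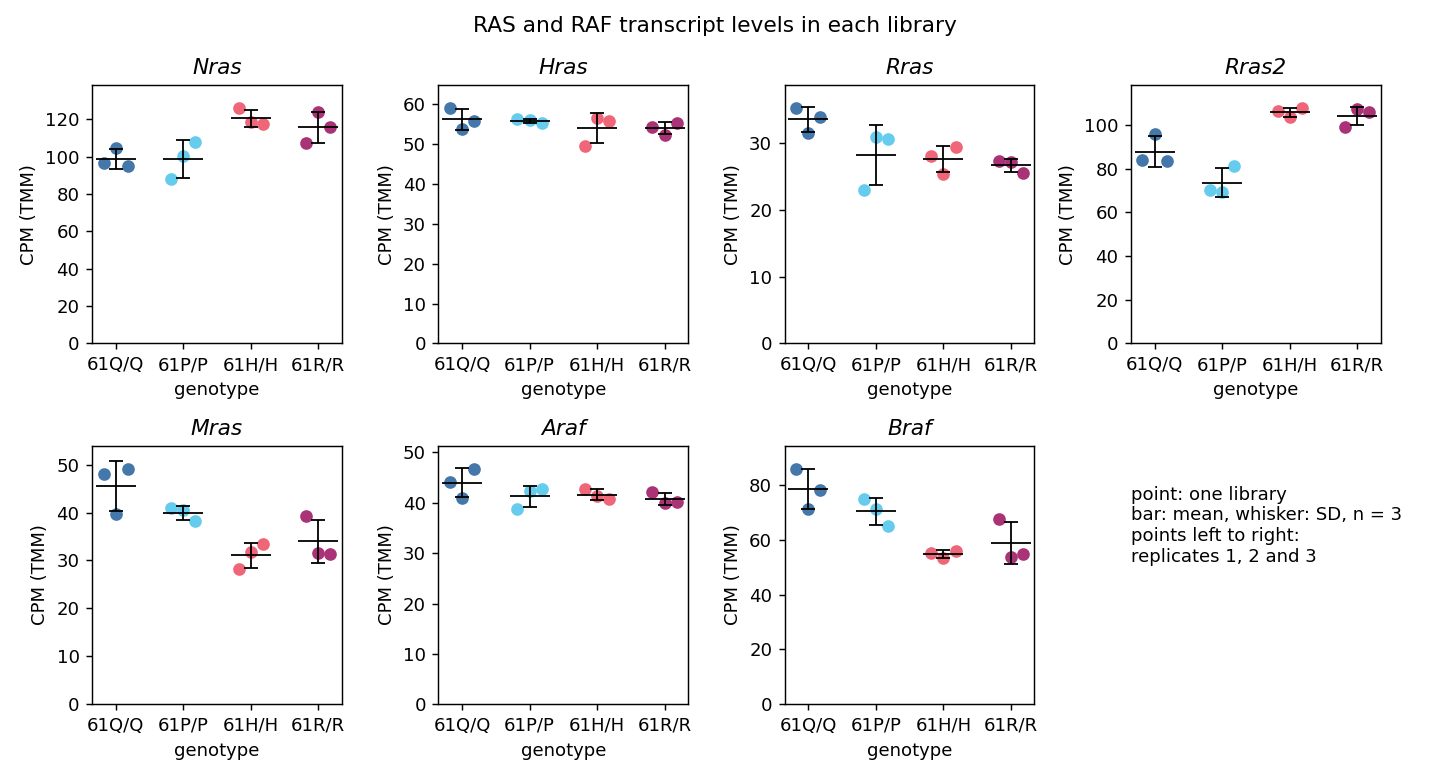
CPM after TMM scaling (y axis, from 0) of each gene in the 3 libraries of each genotype (x axis); points are libraries, horizontal bars means and whiskers SD. Rras2 and Nras are high and Mras and Braf low in 61H/H and 61R/R, and the genotypes overlap for Hras and Araf.

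The 3 mutant genotypes were each set against the same 61Q/Q libraries. In 61R/R 4 of the 7 genes were called (Rras2 higher; Rras, Mras and Braf lower), where 19.0% of all genes tested were called, 9.43% higher and 9.59% lower. Groups did not overlap for 5 of the 7, as for 37.1% of all genes. In 61H/H the 4 were Nras and Rras2 (higher) and Mras and Braf (lower), with 28.2% of all genes called, 13.8% higher and 14.5% lower, and 5 of 7 did not overlap, as for 47.9% of all genes. In 61P/P 0 of 7 were called by edgeR, with 2 at an unadjusted p under 0.05 (Rras and Rras2), 1 called by DESeq2 (Rras2) and 0 by limma-voom. The share of all genes called there was 6.85% by edgeR, 16.4% by DESeq2 and 6.99% by limma-voom. Rras and Rras2 were the 2 genes whose 61P/P and 61Q/Q libraries did not overlap, as for 28.7% of all genes. The 3 comparisons share their control libraries, so a value that is unusual in 61Q/Q enters all of them.

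A direct comparison of 61R/R with 61H/H called none of the 7 genes by edgeR, DESeq2 or limma-voom, and 0 had an unadjusted p under 0.05. The share of all genes called by edgeR was 0%, with 778 genes at an unadjusted p under 0.05. The widest 95% intervals were those of Mras, −0.10 to 0.36, and Rras, −0.28 to 0.18 on the log2 scale, so differences of that size were not resolved. Against 61P/P, Rras2 was the 1 gene called in 61R/R (3.45% of all genes) and in 61H/H (2.49% of all genes). Groups did not overlap for 1 of 7 genes in 61R/R (25.9% of all genes) and for 4 of 7 in 61H/H (33.2% of all genes), namely Nras, Rras2, Mras and Braf. For 61R/R and 61H/H all 7 overlapped, and 12.5% of all genes did not.

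With the genotypes pooled by class, Nras and Rras2 were higher and Mras and Braf lower, 4 of 7 genes, against 28.8% of all genes tested (14.2% higher, 14.6% lower). The median log2 fold change of the 7 genes was −0.054, and that of all genes −0.0020, so no common direction was present. Libraries of the 2 classes did not overlap for 1 of the 7 genes (Rras2), as for 7.20% of all genes. A test for any difference among the 4 genotypes also called these 4 genes (23.8% of all genes), with adjusted p = 0.0114 for Rras2, 0.0131 for Braf, 0.0158 for Mras and 0.0357 for Nras. On leaving out 1 library this call was lost for Nras in 8 of 12 cases (61Q/Q 1 or 3, 61P/P 2, any 61H/H, 61R/R 2 or 3), for Mras without 61Q/Q 1 or 3 and for Braf without 61Q/Q 3. The class calls of these 4 genes held in each of 21 alternatives. The calls of Mras and Braf in 61R/R relative to 61Q/Q held in 16 of 21. They were lost when 61Q/Q library 1 or 3, or 61R/R library 2 or 3, was left out and in a fit of the 2 genotypes alone, settings under which no gene at all was called.

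**Figure D3:**
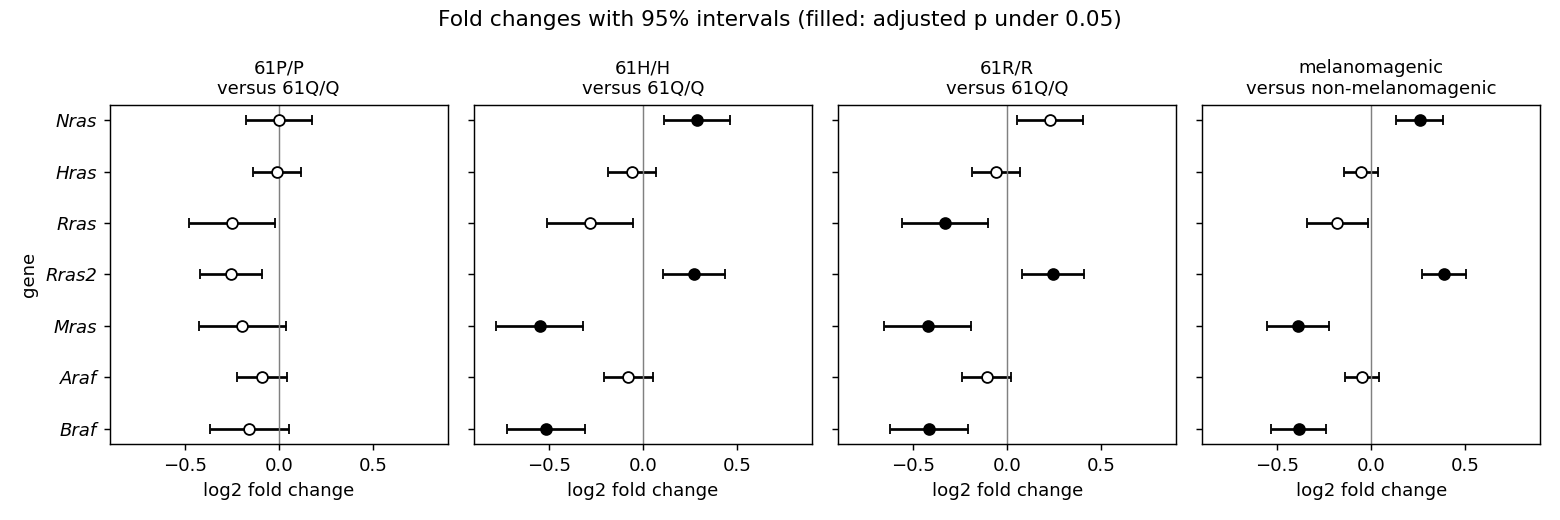
Log2 fold change (x axis) of each gene (y axis) with its 95% interval in 4 comparisons; filled points have an adjusted p under 0.05. Mras and Braf lie left of 0 and Rras2 right of 0 in 61H/H, 61R/R and the class comparison, and no point is filled in 61P/P.

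Ratios taken within a library do not depend on its scaling and are described here without a test. The Braf to Araf ratio per kilobase was 0.646, 0.579 and 0.557 for 61Q/Q, 0.640, 0.560 and 0.506 for 61P/P, 0.429, 0.429 and 0.458 for 61H/H and 0.534, 0.449 and 0.454 for 61R/R. The balance shifted toward Araf in 61H/H and in 2 of the 3 61R/R libraries. The Nras to Hras ratio was 0.833, 0.991 and 0.865 for 61Q/Q, 0.796, 0.912 and 0.995 for 61P/P, 1.29, 1.07 and 1.07 for 61H/H and 1.005, 1.202 and 1.07 for 61R/R. Nras was thus the more abundant of the pair per kilobase in each melanomagenic library and the less abundant in each non-melanomagenic one, although the margin between the nearest libraries (0.995 and 1.005) was small. The Rras2 to Rras ratio ran from 0.936 to 1.27 in the non-melanomagenic and from 1.52 to 1.72 in the melanomagenic libraries.

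**Figure D4:**
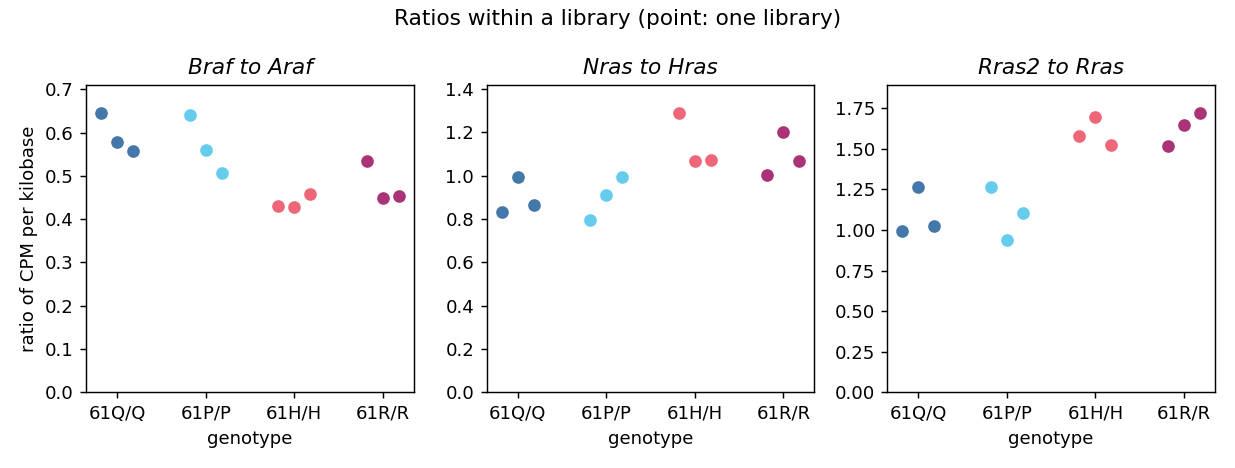
Ratios of CPM per kilobase (y axis, from 0) between gene pairs within each library (points) by genotype (x axis). The Rras2 to Rras and Nras to Hras ratios of 61H/H and 61R/R lie above those of 61Q/Q and 61P/P, and the Braf to Araf ratio is lowest in 61H/H.

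The summed level of the 5 RAS genes was lowest in 61P/P and alike in the other genotypes. It was 132.0 ± 1.59 CPM per kilobase for 61Q/Q, 118.6 ± 8.28 for 61P/P, 134.0 ± 2.95 for 61H/H and 131.9 ± 2.22 for 61R/R (SD, n = 3), so that in 61H/H and 61R/R Rras2 and Nras took a larger, and Rras and Mras a smaller, share of a total like that of 61Q/Q. Rras2 made up 29.2% ± 2.31 of the sum for 61Q/Q, 27.3% ± 1.65 for 61P/P, 34.7% ± 0.32 for 61H/H and 34.7% ± 0.96 for 61R/R. The 2 RAF genes summed to 21.6 ± 1.44, 20.0 ± 0.37, 18.5 ± 0.34 and 18.6 ± 1.18 CPM per kilobase in the same order of genotypes.

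Beside Rras2, Copb1, a coat protein gene 97778 bases away, was lower in the melanomagenic class (log2 fold change −0.20, adjusted p = 0.00492), opposite to Rras2. Beside Braf, Mrps33, a mitochondrial ribosomal protein gene, was higher (0.17, adjusted p = 0.0444), opposite to Braf. Spon1, the gene on the other side of Rras2, was called for any difference among the genotypes (adjusted p = 0.0280) and not between the classes (adjusted p = 0.438).

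The promoters of the 4 genes called between the classes are shown because their transcripts moved in 2 directions. Each line gives the 120 bases before the annotated start (RefSeq, GRCm38.p6), 5′ to 3′ on the gene's strand, with motif matches in capitals. The motifs searched on both strands over 250 bases before the start were GGGCGG (GC box), CACGTG (E-box), TGACGTCA (cAMP response element), CCGGAA (ETS), TTCCCGC (E2F) and TGANTCA (AP-1).
Nras: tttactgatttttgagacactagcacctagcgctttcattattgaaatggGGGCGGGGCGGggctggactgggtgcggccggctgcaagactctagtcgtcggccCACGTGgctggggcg
Rras2: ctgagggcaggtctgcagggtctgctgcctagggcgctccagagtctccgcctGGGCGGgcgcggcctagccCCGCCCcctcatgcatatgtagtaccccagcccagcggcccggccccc
Mras: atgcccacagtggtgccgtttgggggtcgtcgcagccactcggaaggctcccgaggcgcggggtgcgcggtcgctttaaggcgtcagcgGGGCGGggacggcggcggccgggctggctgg
Braf: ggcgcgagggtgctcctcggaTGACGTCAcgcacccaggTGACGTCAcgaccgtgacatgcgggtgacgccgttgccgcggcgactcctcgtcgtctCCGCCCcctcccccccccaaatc
The windows lie at chr3:103058165-103058284 (plus strand), chr7:114117782-114117901 (minus), chr9:99436713-99436832 (minus) and chr6:39725464-39725583 (minus). Over the 250 bases searched, GC boxes were present in all 4 and in 32.7% of 32851 promoters. Nras held 1 E-box, found in 6.02% of promoters, and Braf held 2 cAMP response elements, found in 1.55%. ETS, E2F and AP-1 letters, held by 3952, 1254 and 2217 of the 32851 promoters, were not found for these 4 genes. Of the genes not called, Hras held 3 GC boxes while Rras and Araf held none, and Hras and Araf each held 1 ETS match. The matches are descriptions of the letters, and no binding was measured.

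The genes whose log2 CPM tracked each member most closely over the 12 libraries were, by Pearson correlation, Socs5 (0.99), Nmt2 (0.98) and Ercc1 (0.98) for Nras, Zfp106 (0.96), Ppip5k1 (0.96) and Fbxo33 (0.95) for Rras2, and Prr14 (0.96), Stx8 (0.95) and Dusp11 (0.94) for Rras. For Mras they were Sepn1 (0.99), Sparc (0.98) and Mdga1 (0.98), for Braf Tmem64 (0.99), Mid2 (0.98) and Rictor (0.98), and for Araf Ghdc (0.95), Vps53 (0.94) and Sar1b (0.92). For Hras the closest genes, Foxl2os (0.88), Entpd2 (0.88) and H2-DMb1 (0.87), all averaged under 1 CPM. Among the members, Braf and Mras varied together (0.96), and Nras opposed both (−0.91 with Braf and −0.89 with Mras). These values are picked from all genes and include the differences between genotypes, which the points share.

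Genes that load, process and receive signals from RAS are given here by list, and each count stands against the 28.8% of all genes called between the classes (14.2% higher and 14.6% lower). Of 16 regulators of nucleotide loading that were tested, 3 rose and 5 fell. Rasgrp1, an exchange factor, averaged 1.83 CPM for 61Q/Q, 2.23 for 61P/P, 0.420 for 61H/H and 0.729 for 61R/R and fell (log2 fold change −1.87, adjusted p = 0.00289). The GTPase-activating genes Rasa2 (0.30, adjusted p = 0.00430) and Rasa1 (0.61, adjusted p = 0.00951) rose, and Dab2ip, another negative regulator of RAS, fell (−0.27, adjusted p = 0.00679). Of 13 genes for lipid processing and transport of RAS, 2 rose, namely the depalmitoylating enzyme genes Abhd17a (0.22, adjusted p = 0.00723) and Lypla1 (0.13, adjusted p = 0.0481).

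Several RAF partners rose where Braf fell. Of 15 tested, 7 rose between the classes, where 14.2% of all genes rose, with a median log2 fold change of 0.12 against −0.0020 for all genes. Among them were the chaperones Hsp90aa1 (0.37, adjusted p = 0.00430) and Hsp90ab1 (0.25, adjusted p = 0.00930), which fold RAF proteins, and Ywhaq (0.24, adjusted p = 0.00520) and Ywhae (0.17, adjusted p = 0.0171), 14-3-3 proteins that bind phosphorylated RAF. Mapk3, which encodes ERK1, differed between the classes by 0.038 (adjusted p = 0.609) and was higher in 61H/H than in 61Q/Q (0.22, adjusted p = 0.0412). Its difference between 61P/P and 61Q/Q was of like size without passing the threshold (0.24, adjusted p = 0.0674). Mapk3 averaged 61.2 CPM for 61Q/Q, 72.4 for 61P/P, 71.5 for 61H/H and 65.3 for 61R/R. The MEK genes Map2k1 and Map2k2 differed between 61H/H and 61Q/Q by −0.021 and 0.013 and were not called.

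Of 25 other GTPases of the RAS branch, 1 rose and 6 fell between the classes, a share near the 28.8% of all genes. Rap2b rose (0.37, adjusted p = 0.00419), and Rheb, the activator of mTORC1, fell (−0.25, adjusted p = 0.00766). Diras2 fell further than any of the 7 members (−1.16, adjusted p = 0.00435), from a low level of 2.56 CPM in 61Q/Q. Rasl11b was called between the classes (−0.72, adjusted p = 0.00573), but it set 61Q/Q apart from all other genotypes, with 15.4 CPM for 61Q/Q against 7.06 for 61P/P, 5.57 for 61H/H and 7.23 for 61R/R, and 61P/P was also lower than 61Q/Q (−1.13, adjusted p = 0.0198). Of 14 other RAS effectors, 3 rose and 3 fell, against the same 14.2% and 14.6% of all genes. Rgl2, an exchange factor for Ral, rose (0.36, adjusted p = 0.00586), as did Mllt4, which encodes the junction protein afadin (0.33, adjusted p = 0.00587). Plce1 was called lower (−0.47, adjusted p = 0.0466), but its 61H/H mean lay above that of 61Q/Q. It averaged 10.7 CPM for 61Q/Q, 17.9 for 61P/P, 13.1 for 61H/H and 7.64 for 61R/R. Tiam1 was not called between the classes (−0.014, adjusted p = 0.850). It was called for any difference among the genotypes (adjusted p = 0.0120) and was higher in 61P/P than in 61Q/Q (0.49, adjusted p = 0.0146). Of 10 ERK output genes 8 rose and 1 fell, against 14.2% and 14.6% of all genes, with a median log2 fold change of 0.75. Dusp6, an ERK phosphatase (1.16, adjusted p = 0.00289), and the feedback inhibitors Spry4 (1.13, adjusted p = 0.00289) and Spry2 (0.90, adjusted p = 0.00289) changed by more than any of the 7 members, whose class differences stayed within 0.39 in size.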

How the data were processed

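RNA from 12 MEF cultures was analysed, 3 for each genotype. Per the paper, the authors depleted ribosomal RNA, made stranded libraries, used STAR for alignment to mm10, Picard 2.17.11 for duplicates and featureCounts for counting. The version of STAR, the annotation release and the strand setting are not given in the sources used here. The deposited counts, whole numbers per gene, were used, and the authors' normalized table was not. In R 4.3.3, edgeR 4.0.16 (filterByExpr, TMM, quasi-likelihood test) was fitted to all 12 libraries with a mean for each genotype, with Benjamini-Hochberg adjustment over 15759 genes and calls at an adjusted p of 0.05. The common biological coefficient of variation was 15.7%. Per the paper, replicate MEF lines came from separate embryos. Log2 CPM used a prior count of 2. Reads shared with near-identical copies were not resolved.

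The members, the lists and the pairs for ratios were chosen with earlier results of these data known. Named genes were the 7 members, their nearest genes and the 3 genes most correlated with each member. From each list came up to 4 genes with the smallest p for any difference. Where no gene of a list passed, up to 2 more with the highest mean CPM were added. Same-numbered cultures were checked for pairing, and the check did not pair them. Alternatives were RLE and upper quartile scaling, other filters, DESeq2 1.42.0, limma-voom (limma 3.58.1), a replicate block, embryo sex as a term, a fit of 2 genotypes and leaving out each library. The fit was tested on simulated data. Some genes that these rules name are not reported here.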

Additional observations from a re-analysis of the deposited data

How the results depend on the processing

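Between the classes the same 4 genes were called under each alternative, with 16.5% to 36.1% of all genes called. Rras joined them without 61P/P replicate 1 (24.3% of all genes). For 61R/R relative to 61Q/Q the number called, 4, became 2 with no filter (12.8% of all genes called) and 0 with only the 2 genotypes fitted (0%). On leaving out a library it was 0 to 5 (0% to 28.4% of all genes). For 61H/H relative to 61Q/Q it was 2 to 5 on leaving out a library (11.8% to 34.3% of all genes). For any difference it was 1 to 5 (1.12% to 31.6% of all genes). For 61P/P relative to 61Q/Q, 0 became 1 (Rras2) at a minimum of 1 CPM in all libraries (9.31% of all genes called) and with DESeq2 (16.4%), and 0 to 1 on leaving out a library. For 61R/R relative to 61P/P, 1 became 0 with only the 2 genotypes (0.320% of all genes called) and 0 to 2 on leaving out a library (0% to 9.16%). For 61H/H relative to 61P/P, 1 (2.49% of all genes called) became 4 with DESeq2 (12.6%), 3 with only the 2 genotypes (5.09%), and 0 to 4 on leaving out a library (0% to 7.88%).

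With the replicate number as a block, 61H/H relative to 61P/P gave 2 calls (Rras2 and Braf, 6.36% of all genes). Under the block 61R/R relative to 61Q/Q gave 3 (20.0% of all genes), Rras being lost. Same-numbered libraries did not pair, with correlations of −0.078 to 0.34 and 6 of 18 over 0.1; 6 of 12 libraries correlated best with their own number. The Nras difference between 61P/P and 61Q/Q under the block was −0.00054.

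Signs turned only in uncalled differences near 0. That Nras value was −0.0041 with RLE, −0.0057 at 1 CPM, −0.0041 with DESeq2, −0.0030 with limma-voom, −0.00025 with embryo sex as a term and −0.068 to 0.078 without 1 library. On leaving out a library Hras gave −0.039 to 0.027 in the same comparison. Between 61R/R and 61H/H Hras was −0.0021 with no filter and −0.056 to 0.034 without 1 library, Rras2 −0.048 to 0.0068 and Braf −0.014 to 0.16. Between 61R/R and 61P/P Araf was −0.061 to 0.0066. Between 61H/H and 61P/P Hras was −0.082 to 0.0077, Rras −0.16 to 0.041 and Araf −0.031 to 0.037, with −0.00047 for Araf at 1 CPM. The cause was not tested.

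With 3 cultures a genotype, differences smaller than the intervals given were not resolved. Protein and RAS activity were not measured in these data. The paper's immunoblots of MEFs, after a period without serum, gave no significant difference in NRAS protein between these genotypes.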
